A study of Mesocricetus auratus with 6 samples.

Results

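The genes described here are those that mark the choroid plexus and the ciliated ependyma, the epithelia that line the ventricles of the brain. They were taken from a list of 10 symbols, 6 for the choroid plexus (*Ttr*, *Kl*, *Folr1*, *Clic6*, *Aqp1* and *Otx2*) and 4 genes of ciliated ependymal cells (*Foxj1*, *Ccdc153*, *Rsph1* and *Enkur*), and 9 of these 10 were found among the 31593 genes of the files. *Folr1*, a folate receptor, had no row under that symbol and is not analysed here. The genes were picked by identity and not by a rule on measured values, but with earlier results of these data known. The 5 choroid plexus genes and the 4 ciliated genes were read apart.

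The choroid plexus is a folded epithelium inside the ventricles that makes cerebrospinal fluid and secretes carrier proteins into it. Transthyretin, the thyroxine carrier encoded by *Ttr*, is among its most abundant products, and the liver makes the same protein for blood plasma. Ependymal cells line the remaining ventricular wall and carry motile cilia that move the fluid. The suprachiasmatic nucleus (SCN), the circadian pacemaker of mammals, lies beside the third ventricle and above the ventral surface of the brain, so ependyma and meninges border it.

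RNA-seq was performed on cortex, SCN and liver of *duper* and wild-type Syrian hamsters raised under long days and collected at CT15, in the early subjective night. *duper* is a recessive mutation of *Cry1*, a repressor of the circadian clock, and the *duper* hamsters came from stock crossed to the LVG ecotype and then bred apart from the LVG wild type. Each cortex and SCN library held the mixed RNA of 4 hamsters, and each liver sample held the merged reads of libraries from 4 hamsters, which left 1 library per genotype and tissue, 6 in all. All *duper* animals were female, whereas wild-type animals of both sexes were used, so genotype, sex and colony cannot be told apart, and ages are not given in the sources used here.

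The libraries held between 6788947 and 85748562 estimated counts, with the wild-type cortex and the *duper* SCN the shallowest brain libraries at 6788947 and 7248840. *Cry1* itself was lower in *duper* in all 3 tissues, at 8.56 TPM (transcript abundance scaled to the same total in each library) against 33.3 in cortex, 8.14 against 22.9 in SCN and 5.44 against 16.8 in liver. The tissue labels were set beside neuronal markers. All 8 listed cortex neuron genes were called lower in SCN, beside 11.7% of all tested genes. Of 12 listed SCN and hypothalamus neuron genes 6 could be tested, and all 6 were called higher, beside 9.28%. *Nms*, *Pmch*, *Six6* and *Lhx1* had at most 4 counts in a cortex library, so they passed the filter on low counts through SCN alone. *Emx1*, with 2 and 0 counts in SCN, passed through cortex alone. The direction of those calls was thus set by the filter. *Rgs16* and *Zfhx3*, counted in both tissues, rose by 1.20 and 2.08 on the log2 scale.

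Among the choroid plexus genes, *Ttr* was by far the most abundant and the most variable in brain. *Ttr* stood at 1837 TPM in wild-type cortex, 2505 in *duper* cortex, 165 in wild-type SCN and 24.1 in *duper* SCN, from 2617, 5501, 1185 and 41 estimated counts. Both cortex libraries therefore lay far above both SCN libraries, and the highest and lowest were 104-fold apart. In liver *Ttr* reached 15212 TPM in wild type and 15372 in *duper*.

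*Kl* encodes klotho, a membrane protein of the choroid plexus and kidney, and *Otx2* encodes a homeodomain transcription factor that choroid plexus epithelium keeps in the adult. *Kl* was listed at 6.49 TPM in wild-type cortex, 3.004 in *duper* cortex, 1.23 in wild-type SCN and 1.26 in *duper* SCN. *Otx2* was listed at 4.91, 3.40, 0.438 and 0.132 TPM in the same order, the last value resting on 1 estimated count. For both genes the cortex libraries lay above the SCN libraries without overlap. Neither had a count in the liver libraries, where 3 counts would correspond to at most 0.0150 TPM for *Kl* and 0.0346 TPM for *Otx2*.

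*Clic6*, a chloride intracellular channel family member, and *Aqp1*, a water channel of the apical membrane of the choroid plexus, behaved differently. *Clic6* stood at 12.9 TPM in wild-type cortex, 11.9 in *duper* cortex, 9.08 in wild-type SCN and 13.1 in *duper* SCN, a range of 1.44-fold with the tissues overlapping. *Aqp1* stood at 11.5, 8.32, 10.2 and 3.75 TPM in that order, so that the *duper* SCN alone was low. Both were also found in liver, *Aqp1* at 62.6 TPM in wild type and 90.5 in *duper*, and *Clic6* at 4.15 and 0.626. *Aqp1* is also made by vessels and bile ducts, so it is not a marker of choroid plexus alone.

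**Figure D1:**
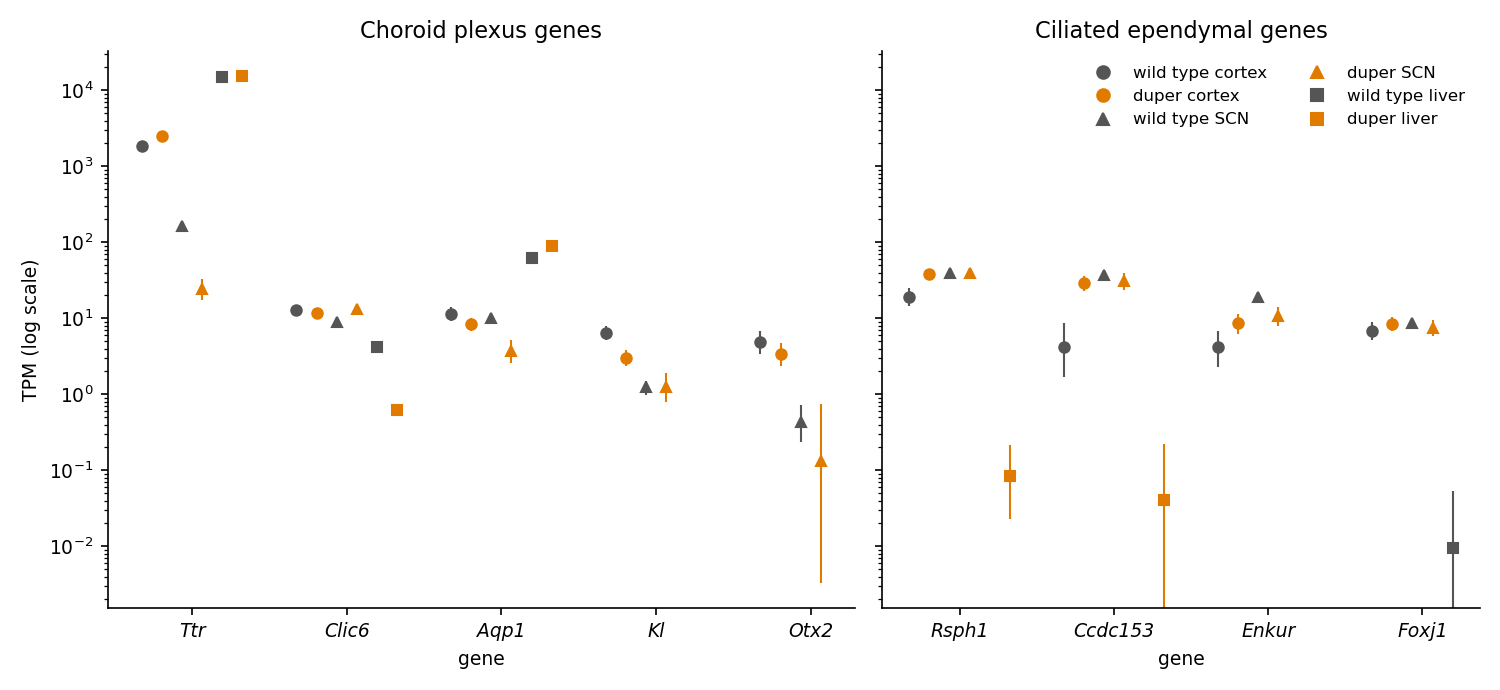
TPM (log scale) of the 5 choroid plexus genes (left) and the 4 ciliated ependymal genes (right) in the 6 libraries, with colours for genotype, symbols for tissue and bars for the exact Poisson 95% interval of the counts; libraries without a count are not drawn. *Ttr* spans 24.1 to 2505 TPM in brain and is highest in liver, while each ciliated gene has its lowest brain value in the wild-type cortex.

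The ciliated ependymal genes followed another order. *Foxj1* encodes the transcription factor that switches on the motile cilia programme, and its level was even, at 6.91 TPM in wild-type cortex, 8.46 in *duper* cortex, 8.62 in wild-type SCN and 7.49 in *duper* SCN. *Rsph1*, a radial spoke protein of the ciliary axoneme, stood at 19.1, 38.7, 39.4 and 38.9 TPM. *Ccdc153*, a coiled-coil gene used as an ependymal marker, stood at 4.19, 28.9, 37.1 and 30.7 TPM. *Enkur*, an axonemal calmodulin-binding protein, stood at 4.15, 8.57, 19.2 and 10.7 TPM.

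All 4 ciliated genes were lowest in the wild-type cortex and highest in the wild-type SCN. Of all genes averaging 1 TPM or more in brain, 28.9% were lowest in the wild-type cortex. The share of all genes highest in the wild-type SCN was not computed. The low values were thinly sampled, with 7 estimated counts for *Ccdc153* and 15 for *Enkur* in the wild-type cortex. In liver the 4 genes had between 0 and 4 estimated counts. In bulk tissue, fewer cells of a type and less RNA per cell cannot be told apart.

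The first comparison asked whether these genes differed between SCN and cortex, with the genotypes standing in for replicates in edgeR's quasi-likelihood test on the 4 brain libraries. A gene counted as called when its p, adjusted by Benjamini and Hochberg's method over all tested genes, was under 0.05 and its log2 fold change exceeded 0.58 in size. Of the 5 choroid plexus genes, 3 were called lower in SCN and 0 higher, beside 11.7% of 16903 tested genes called lower. Of the 4 ciliated genes, 1 was called higher and 0 lower, beside 9.28% called higher, and 21% of all tested genes were called in either direction.

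*Ttr* fell by 4.51 on the log2 scale from cortex to SCN (SE 0.42, edgeR adjusted p = 1.7e-06). *Otx2* fell by 3.78 (SE 0.67, edgeR adjusted p = 0.00058) and *Kl* fell by 1.91 (SE 0.37, edgeR adjusted p = 0.0012). *Otx2*, at 14 and 1 estimated counts in SCN, passed the filter on low counts through the cortex libraries alone. Its call is therefore no independent support for a fall in SCN. For *Ttr*, *Otx2* and *Kl*, 3 of the 5 genes, both SCN libraries lay below both cortex libraries, as they did for 30.9% of all genes. *Aqp1* had a log2 fold change of -0.59 (SE 0.28, edgeR adjusted p = 0.13) and *Clic6* one of -0.19 (SE 0.20), and neither passed the test. The choroid plexus genes therefore did not move as one group between the tissues. With 1 residual degree of freedom the spread was largely borrowed from other genes. A fit of all 6 libraries, liver included, called *Ttr* (edgeR adjusted p = 0.014) but not *Kl* (0.069), and *Otx2* was not tested in it. Less single brain libraries, that fit called neither *Kl* nor *Otx2*, and the *Ttr* call was lost without the wild-type cortex (edgeR adjusted p = 0.093) or the *duper* cortex (0.0997).

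*Enkur* rose by 1.21 on the log2 scale in SCN (SE 0.41, edgeR adjusted p = 0.038). *Ccdc153* had the similar log2 fold change of 1.24 but a larger error (SE 0.49, edgeR adjusted p = 0.071). It was called with no filter on low counts (edgeR adjusted p = 0.0012) and with the likelihood ratio test (edgeR adjusted p = 0.026), and its log2 fold change ran from 0.14 to 3.14 when single brain libraries were left out of a fit of all 6. *Rsph1* had a log2 fold change of 0.51 (SE 0.25) and *Foxj1* one of 0.08 (SE 0.27), and neither passed the test. The *Enkur* call was lost with DESeq2 (adjusted p = 0.21) and in the fit of all 6 libraries (edgeR adjusted p = 0.25), and less the wild-type cortex its log2 fold change in that fit was 0.33.

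The genotypes were then read apart. On the log2(TPM + 1) scale, 3 of the 5 choroid plexus genes were over 2-fold lower in SCN in wild type and 2 of the 5 in *duper*, beside 9.14% and 8.92% of all genes. Of the 4 ciliated genes, 3 were over 2-fold higher in SCN in wild type and 0 in *duper*, beside 8.66% and 7.36%. For *Ttr*, SCN was 11.1-fold below cortex in wild type and 104-fold below it in *duper*, with log2 ratios of -3.47 (95% counting interval -3.58 to -3.38) and -6.70 (-7.18 to -6.26). Less the median level that hepatocyte genes correspond to, set out further on, these would be 11.7-fold and 284-fold. The second value depends on the choice of the median. In the *duper* SCN single hepatocyte genes gave levels from 8.38 to 36.6 TPM, a range that includes the measured 24.1. For *Ccdc153*, SCN was 8.85-fold above cortex in wild type (log2 interval 2.09 to 4.47) and 1.06-fold above it in *duper* (-0.42 to 0.58). *Enkur* was 4.62-fold higher in the wild-type SCN than in cortex and 1.25-fold higher in the *duper* SCN, and *Rsph1* was 2.07-fold and 1.01-fold higher. In *duper*, therefore, the log2 intervals of all 4 ciliated genes included 0. These intervals come from Clopper-Pearson limits on the estimated counts and cover counting error only, and with 1 library per genotype and tissue the difference between genotypes could not be tested.

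**Figure D2:**
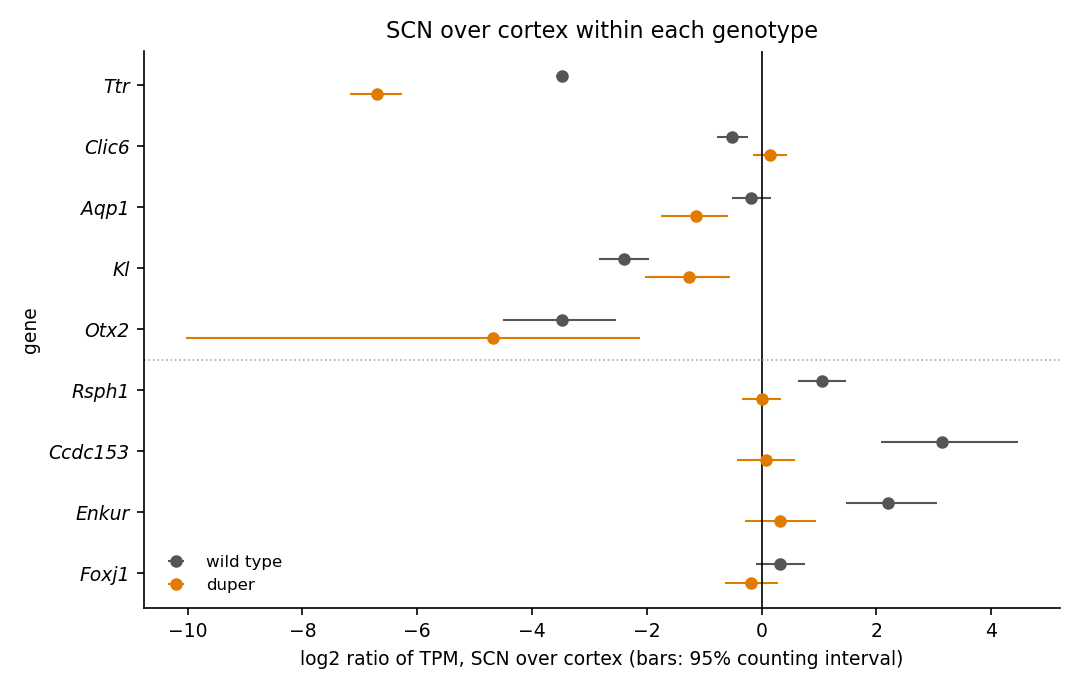
Log2 ratio of TPM in SCN over cortex for each of the 9 genes, within wild type (grey) and within *duper* (orange), with bars for the 95% counting interval; the dotted line separates choroid plexus genes (above) from ciliated genes (below). *Ttr*, *Kl* and *Otx2* lie left of 0 in both genotypes, while the ciliated genes lie near 0 in *duper* and, except *Foxj1*, clearly right of 0 in wild type.

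A wider list of 28 choroid plexus genes did not move in one direction between the tissues. Of 27 that could be tested, 5 were called higher in SCN and 4 lower, beside 9.28% and 11.7% of all tested genes. The median log2 fold change was -0.10 beside 0.02 for all genes. The lower genes were *Tmem72* (-3.57), a transmembrane gene of choroid plexus and kidney, *Kcne2* (-3.12), a potassium channel subunit, *Cldn2* (-2.10), the claudin of leaky epithelia, and *Kcnj13* (-1.14), an inwardly rectifying potassium channel. *Tmem72*, at 29.2 and 3 estimated counts in the wild-type and *duper* SCN, passed the filter on low counts through the cortex libraries alone. The fit of all 6 libraries called 1 higher and 2 lower, beside 11.2% of all genes called in either direction. With single brain libraries left out of it, the list's median log2 fold change ran from -0.27 without the wild-type cortex to 0.11 without the *duper* cortex. In those fits the log2 fold change ran from -4.99 to -0.70 for *Cldn2*, nearest 0 without the *duper* SCN, and from -2.65 to -0.28 for *Kcnj13*, again nearest 0 without the *duper* SCN. Within wild type, *Kcnj13* was nearly level, at 12.8 TPM in cortex and 11.6 in SCN, and its low value was that of the *duper* SCN at 2.10.

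The higher genes of the wider choroid plexus list were *Prlr* (log2 fold change 1.75), the prolactin receptor, and LOC101824864 (1.25). RefSeq lists the latter under the synonym *Ace* of the angiotensin-converting enzyme. The others were *Col8a1* (1.09), a short-chain collagen, the sulphate transporter gene *Slc13a4* (1.01), and *Igf2* (0.80), a growth factor. Left out singly from the fit of all 6, the brain libraries gave *Prlr* values from 0.67 without the wild-type SCN to 2.92 without the *duper* SCN. *Igf2* is also on the list of leptomeningeal fibroblast genes. *Slc13a4* stood at 19.7 TPM in wild-type cortex, 20.8 in *duper* cortex, 65.5 in wild-type SCN and 24.1 in *duper* SCN. *Col8a1* stood at 1.85, 1.85, 5.76 and 2.65 TPM. Both were thus highest in the wild-type SCN, as was the leptomeningeal sum given below. The part of cells outside the choroid plexus in these values was not tested. The most abundant genes of the wider list were not called. *Enpp2*, which encodes autotaxin, had 230, 285, 260 and 245 TPM in that order of libraries. *Igfbp2*, an IGF-binding protein, had a log2 fold change of -0.26, *Slc12a2*, the sodium-potassium-chloride cotransporter, one of 0.11 and *Htr2c*, the serotonin 2C receptor, one of 0.47.

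A wider list of 40 motile cilia genes leaned to SCN. Of 37 tested, 9 were called higher in SCN and 1 lower, beside 9.28% and 11.7% of all tested genes. A positive log2 fold change was seen for 34, and the median was 0.71 beside 0.02 for all genes. The most abundant was *Tppp3*, a tubulin-binding protein also found in other cells, at 104, 126, 245 and 300 TPM in the order above, and it rose by 1.25 on the log2 scale. *Lrrc23*, a radial spoke component, rose by 1.79, *Odad1*, of the outer dynein arm docking complex, by 1.33, and *Dnah6*, an axonemal dynein heavy chain, by 1.20. *Rsph9* (1.17), *Cfap65* (0.97), *Odad2* (0.96), *Zmynd10* (0.93) and *Hydin* (0.91), which build radial spokes, dynein arms and the central apparatus, made up the rest. The *Dnah6* value ran from 0.24 without the wild-type cortex to 2.37 without the *duper* cortex, when these were left out of a fit of all 6 libraries.

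*Spag6*, a central apparatus gene, was the exception, with 39.7 and 33.6 TPM in the cortex libraries against 3.55 and 3.97 in the SCN libraries and a log2 fold change of -3.35 (SE 0.24, edgeR adjusted p = 1.0e-07). *Dynlrb2*, a dynein light chain, stood at 8.63, 22.9, 29.9 and 19.0 TPM and was not called. Among 8 regulators of multiciliated cells, 5 could be tested, of which *Rfx2* rose by 0.96 in SCN and *Rfx3*, which many neurons also express, fell by 0.88. A fit of all 6 libraries, liver included, called 1 motile cilia gene higher and 1 lower, beside 11.2% of all genes. Less the wild-type cortex that fit called 0 of 38, beside 1.32% of all genes, and their median log2 fold change was 0.22 beside 0.03 for all genes. The median was 0.23 less the wild-type SCN, 1.29 less the *duper* cortex and 1.10 less the *duper* SCN, beside -0.01, 0.04 and 0.03 for all genes.

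The position of the wild-type cortex ran through the whole cilia list. Of 38 motile cilia genes averaging 1 TPM or more, 34 were lowest in the wild-type cortex, beside 28.9% of all genes. The 4 that were not lowest there were *Spag6*, *Rsph9*, *Odad2* and *Mlf1*, named after their values were seen. In the wild-type SCN 19 of the 38 were highest, a count with no share over all genes to set beside it. Both SCN libraries lay above both cortex libraries in 21 of the 38, beside 31.2% of all genes. Of 26 wider choroid plexus genes, 11 were lowest in the *duper* SCN, beside 20.6% of all genes, and so were *Ttr*, *Aqp1* and *Otx2*.

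**Figure D3:**
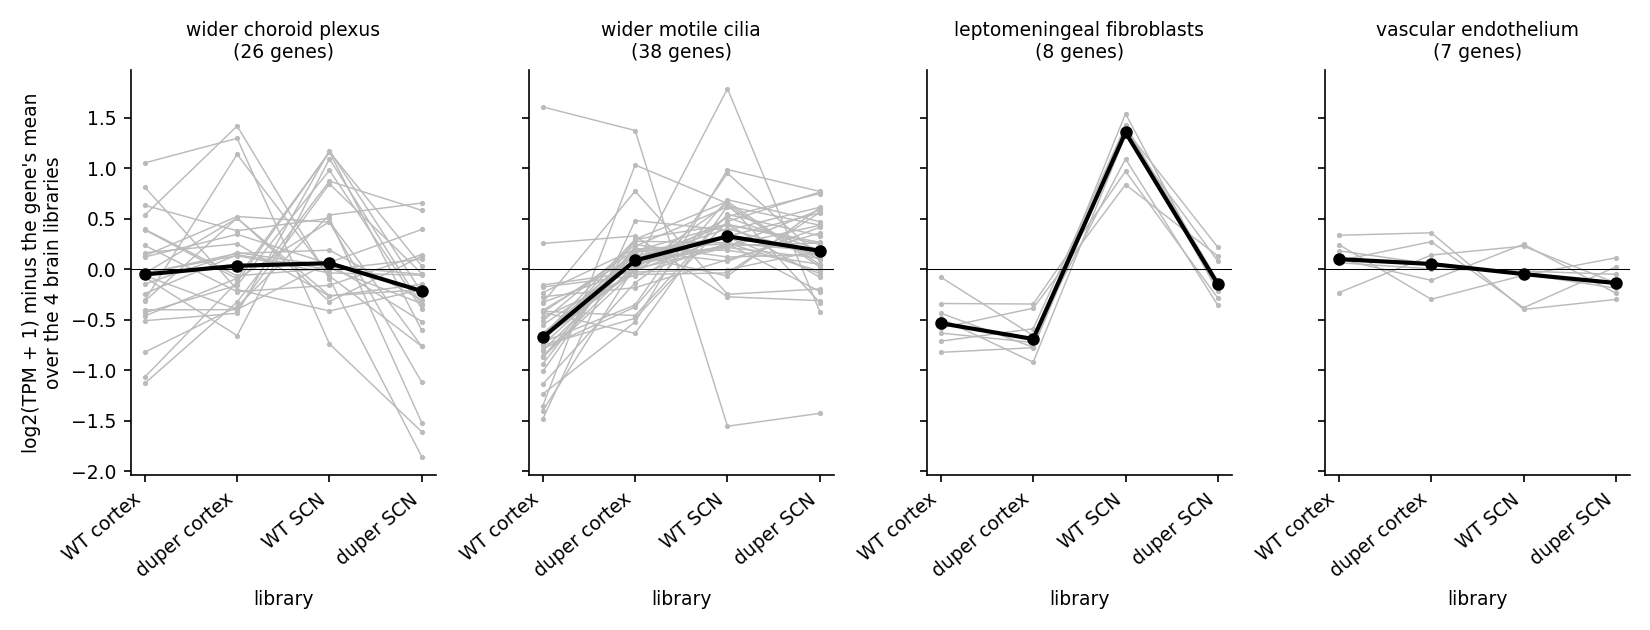
Log2(TPM + 1) of each listed gene (thin lines) and the list's median (thick line) in the 4 brain libraries, minus the gene's mean over these libraries, for the wider choroid plexus, wider motile cilia, leptomeningeal fibroblast and vascular endothelium lists; genes averaging 1 TPM or more. The cilia median is lowest in the wild-type cortex, the leptomeningeal median is highest in the wild-type SCN, and the choroid plexus list spreads in both directions.

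Markers of neighbouring tissues also differed between the libraries. All 8 leptomeningeal fibroblast genes were called higher in SCN, beside 9.28% of all tested genes. Their summed levels were 110 TPM in wild-type cortex, 95.5 in *duper* cortex, 414 in wild-type SCN and 158 in *duper* SCN, and none of the 8 was at 0. The number called was 0 with limma, beside 12.4% of all genes called in either direction, and 2 in the fit of all 6 libraries, beside 11.2%. With single brain libraries left out of that fit, the median log2 fold change ran from 0.49 without the wild-type SCN to 2.05 without the *duper* SCN. Erythroid genes summed to 10.4, 3.80, 20.7 and 7.70 TPM in the same order. Most of each sum was a single gene, *Alas2*, at 6.48, 2.83, 17.4 and 5.50 TPM. Of 7 endothelial genes tested 0 were called higher and 1 lower, beside 9.28% and 11.7% of all tested genes. Of 7 tanycyte genes 0 were called higher and 4 lower, beside the same shares. *Rax*, which marks tanycytes, was at 0 in cortex and at 0.298 and 0.209 TPM in SCN. The part of any of these in the choroid plexus and cilia values was not tested.

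The second comparison asked whether *duper* differed from wild type. Across cortex and SCN, 0 of the 9 genes were called, beside 0.13% of 16903 genes (0.0592% higher and 0.071% lower), and across all 3 tissues 0 of the 8 that could be tested were called, beside 0.00547% of 18275 genes. *Otx2* was too low for the test over 3 tissues. At an unadjusted p under 0.05, 1 of the 9 and 0 of the 8 would pass, and DESeq2, limma and edgeR's likelihood ratio test also called 0. With no filter on low counts, *Aqp1* was called in brain (edgeR adjusted p = 0.049). *Cry1* was called in brain, where it fell by 1.81 on the log2 scale (SE 0.20, edgeR adjusted p = 0.0013).

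*Aqp1* came nearest among the 9 genes, with a log2 fold change of -0.95 in *duper* brain (SE 0.28, edgeR adjusted p = 0.52). It was the only one of them with an unadjusted p under 0.05, as were 889 of the 16903 genes. The other choroid plexus genes had log2 fold changes of -0.54 for *Ttr* (SE 0.41), -0.64 for *Kl* (SE 0.37), -0.79 for *Otx2* (SE 0.65) and 0.20 for *Clic6*. The value for *Ttr* depended on the method, at -1.07 with the likelihood ratio test, -1.16 with DESeq2 and -1.14 with limma. With no filter it had an edgeR adjusted p of 0.0013 and a log2 fold change of -0.54, under the size needed for a call. The ciliated genes had 0.78 for *Ccdc153*, 0.42 for *Rsph1*, 0.01 for *Foxj1* and -0.12 for *Enkur*.

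In the wider lists *Igf2* alone was called between genotypes in brain, where it fell by 1.11 (SE 0.19, edgeR adjusted p = 0.039). Its levels were 27.9 TPM in wild-type cortex, 18.3 in *duper* cortex, 64.0 in wild-type SCN and 22.8 in *duper* SCN, and the call was lost with library-size scaling (adjusted p = 0.25), DESeq2 (0.18) and limma (0.78). The likelihood ratio test called *Igf2* and *Igfbp2*, beside 0.55% of all genes. The fit with no filter on low counts called 5 of 28 wider choroid plexus genes lower, beside 0.555% of all genes called in that fit. Of the 8 leptomeningeal genes, 6 were called lower with no filter and 3 with the likelihood ratio test. All 8 leptomeningeal genes, *Igf2* among them, were lower in the *duper* SCN than in the wild-type SCN, with a median log2 ratio of -1.35, and their part in the *Igf2* value was not tested. Of the 37 motile cilia genes 0 were called by edgeR, limma or DESeq2 (1 of 39, *Dnah5*, with edgeR and no filter), with 4 at an unadjusted p under 0.05, 29 log2 fold changes above 0 and a median of 0.29.

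Within a single tissue the genotype ratios of some genes were large. In SCN, *Ttr* was 6.85-fold lower in *duper* than in wild type, with a log2 ratio of -2.78 (95% counting interval -3.26 to -2.33). *Aqp1* was 2.71-fold lower in the *duper* SCN (log2 interval -1.98 to -0.94). These 2 were the only choroid plexus genes over 2-fold apart in SCN with a mean of at least 1 TPM and a pseudocount of 1 TPM, beside 3.59% of 18305 genes over 2-fold lower and 3.15% over 2-fold higher. *Otx2*, with 1 count against 14, had a log2 ratio of -1.73 with an interval from -7.13 to 0.99. *Kl* had a log2 ratio of 0.03 (-0.71 to 0.71), and *Clic6* was 1.44-fold higher in *duper* (0.28 to 0.78). In the wider choroid plexus list, 9 of 24 genes were over 2-fold lower in the *duper* SCN and 0 over 2-fold higher. Beside them, 7 of 8 leptomeningeal genes, with *Igf2* on both lists, were over 2-fold lower there. Of 7 SCN and hypothalamus neuron genes 6 were lower, 3 of them over 2-fold. Their list summed to 153 TPM in wild-type SCN and 76.8 in *duper* SCN. Much of that fall lay in *Pmch* (58.2 and 11.4 TPM) and *Nms* (33.5 and 13.4). *Rgs16* (24.8 and 23.2 TPM) and *Zfhx3* (16.9 and 17.6) were nearly level. *Vip*, *Avp* and *Grp* had no row under those symbols. The part of leptomeningeal cells and of these neurons in the choroid plexus values was not tested.

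In cortex the order was different. *Ttr* was 1.36-fold higher in *duper* (log2 interval 0.38 to 0.52), while *Kl* was 2.16-fold lower (-1.58 to -0.65) and *Aqp1* was 1.39-fold lower (-0.90 to -0.05). The intervals of *Clic6* and *Otx2* included 0. Of 27 wider choroid plexus genes, 20 were higher in the *duper* cortex, with 1 over 2-fold higher and 1 over 2-fold lower and a median log2 ratio of 0.22 beside 0.02 for all genes. No choroid plexus gene passed 2-fold on the log2(TPM + 1) scale in cortex, where 3.77% of 18096 genes passed it upward and 3.58% downward.

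In cortex the ciliated genes were higher in *duper*, by 6.90-fold for *Ccdc153* (log2 interval 1.67 to 4.15), 2.06-fold for *Enkur* (0.18 to 1.99), 2.03-fold for *Rsph1* (0.57 to 1.49) and 1.22-fold for *Foxj1* (-0.20 to 0.80). Of these, *Ccdc153* alone was over 2-fold on the log2(TPM + 1) scale. In SCN all 4 were slightly lower in *duper*, and for *Enkur* alone, 1.79-fold lower, did the interval exclude 0 (-1.32 to -0.39). The wider cilia list followed suit, with 30 of 33 genes higher in the *duper* cortex at a median log2 ratio of 0.73 beside 0.02 for all genes, and 16 of 39 higher in the *duper* SCN at a median of -0.14.

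**Figure D4:**
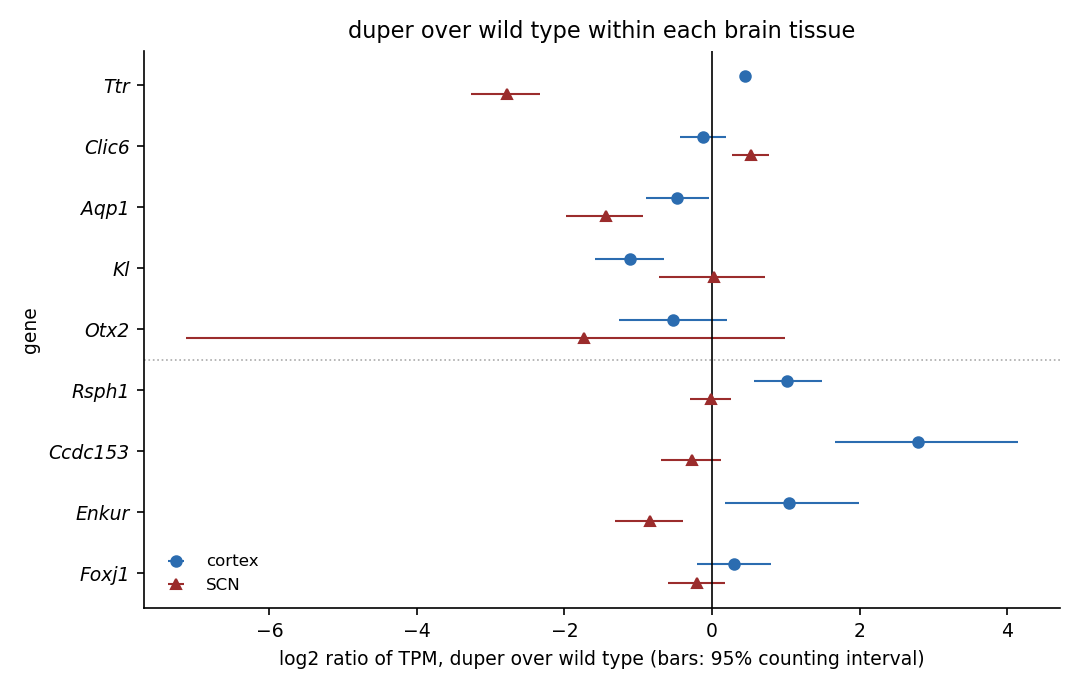
Log2 ratio of TPM in *duper* over wild type for each of the 9 genes, within cortex (blue circles) and within SCN (red triangles), with bars for the 95% counting interval; the dotted line separates choroid plexus genes (above) from ciliated genes (below). *Ttr* is 1.36-fold higher in the *duper* cortex and 6.85-fold lower in the *duper* SCN, and the ciliated genes lie right of 0 in cortex and at or left of 0 in SCN.

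In liver the levels of *Ttr* differed by 1.01-fold between genotypes. *Aqp1* was 1.45-fold higher in *duper* liver and *Clic6* 6.63-fold lower, from 123 estimated counts in *duper* against 655 in wild type. *Clic6* passed 2-fold also on the log2(TPM + 1) scale, beside 3.89% of 14054 genes that did so downward. The remaining genes had too few counts in liver for a ratio.

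*Ttr* alone of the choroid plexus genes is also a major liver transcript, so its brain levels were set beside 7 other hepatocyte genes, which included *Alb*, serum albumin, and *Apoa1*, an apolipoprotein. In the brain libraries these genes stood at a median of 0.102% of their liver level in wild-type cortex, 0.0547% in *duper* cortex, 0.0637% in wild-type SCN and 0.1001% in *duper* SCN. The same percentage of the liver level of *Ttr* would be 15.6, 8.36, 9.74 and 15.3 TPM. Measured *Ttr* was 118-fold, 300-fold, 17.0-fold and 1.57-fold above these levels. In the *duper* SCN the 24.1 TPM of *Ttr* lay within the range of 8.38 to 36.6 TPM that the single hepatocyte genes gave, and in the other brain libraries *Ttr* lay above that range. The upper end of 36.6 came from *Hnf4a*, at 0.239% of its liver level from 8 estimated counts. *Serpina1* was next at 0.170%, and *Ttr* stood at 0.158%, near the top of the range. Of the 6 hepatocyte genes that could be tested in brain, 0 were called by edgeR between tissues or genotypes, with 0 at an unadjusted p under 0.05. Whether liver RNA or reads reached the brain libraries was not tested.

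**Figure D5:**
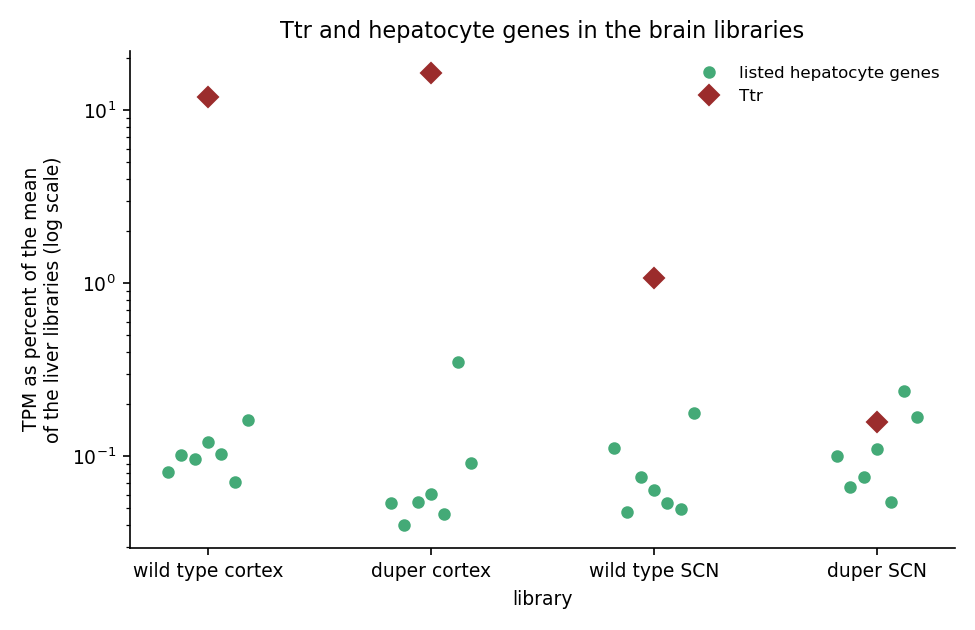
TPM of *Ttr* (diamonds) and of 7 listed hepatocyte genes (circles) in each brain library, as a percentage of the mean of the liver libraries on a log scale. *Ttr* stands 118-fold and 300-fold above the level the median hepatocyte gene corresponds to in the cortex libraries, 17.0-fold in the wild-type SCN and 1.57-fold in the *duper* SCN.

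The proportion of *Ttr* to the other choroid plexus genes varied as well. *Ttr* stood at 374 times the TPM of *Otx2* in wild-type cortex, 736 times in *duper* cortex, 377 times in wild-type SCN and 183 times in *duper* SCN, the last from 1 *Otx2* count. Against *Clic6* the same ratios were 142, 211, 18.2 and 1.84. Against *Kl* they were 283, 834, 134 and 19.2, and against *Aqp1* 159, 301, 16.2 and 6.42. In wild type the proportion of *Ttr* to *Otx2* was thus nearly the same in SCN and cortex, but from only 14 *Otx2* counts in SCN, and the proportions to the other genes were lower in SCN.

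Reads of most of these genes could not be split between isoforms, since the files held 1 transcript each for 7 of the 9. *Otx2* had 2, of which one took all counts in SCN, and *Ccdc153* had 3, of which one had no counts in any library.

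Genes whose pattern over the 4 brain libraries was most like the mean of each group were sought among 13512 genes averaging 5 TPM or more, by root mean square distance of centred log2(TPM + 1). Nearest to the choroid plexus genes were LOC121133068, LOC121140115, *Rab40b*, *Moxd1*, *Dgkh*, LOC110340934, LOC121138701 and *Zdhhc23*, at distances from 0.0632 to 0.175, and none of these is on the wider choroid plexus list. Of that list, 17 genes entered the search and had a median distance of 1.03, beside 0.967 for all genes. Nearest to the ciliated genes were LOC101835523, *Spa17*, a sperm and cilia protein, LOC121138256, *Plpp2*, LOC121138648, *Tm4sf1*, CUNH10orf105 and *Rras*, at distances from 0.0769 to 0.108. The 17 wider motile cilia genes in the search had a median distance of 0.356, beside 0.611 for all genes.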

How the data were processed

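Cortex, SCN and liver of *duper* and wild-type hamsters were profiled with a stranded mRNA kit and paired reads. Per the labels and the study's methods, the authors quantified reads with kallisto against MesAur2.0 (the kallisto version is not given in the sources used here) and added up transcripts per gene with tximport. The authors deposited estimated counts per gene, not normalized, TPM per gene, and per-transcript tables of 67818 transcripts with estimated counts, TPM and length. Since cortex and SCN RNA was mixed and liver reads were merged, the files show no spread between animals.

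Samples were grouped by their genotype and tissue labels. The estimated counts, rounded, entered edgeR 4.0.16 (R 4.3.3, TMM, filterByExpr by genotype, quasi-likelihood F test, model of tissue and genotype), for genotype over 6 libraries (18275 genes, 2 residual degrees of freedom) and, in the 4 brain libraries, for genotype and for tissue (16903 genes, 1 residual degree of freedom). Standard errors were taken as the size of the log2 fold change over the square root of F. P-values were adjusted over all genes tested. An interaction of genotype and tissue leaves no residual degrees of freedom. Within a tissue no test was made, and 95% Clopper-Pearson intervals of count ratios (scipy 1.17.1) and Poisson intervals cover counting error only and refer to values without a pseudocount. Ratios were set against 2-fold on log2(TPM + 1), among genes averaging 1 TPM or more. A level with no count was given the limit of 3 counts. Alternatives were library-size scaling, no filter on low counts, the likelihood ratio test, DESeq2 1.42.0, limma 3.58.1 on log2(TPM + 1), no fold threshold, other sets of libraries, and a pseudocount of 0.1 TPM or CPM within tissues. Leaving out single brain libraries and taking a liver-derived level off *Ttr* were added after seeing the data. Scripts were tested on simulated data.

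The genes and all 12 lists were chosen with earlier results of these data known. Named genes are the members, wider choroid plexus and motile cilia genes called in a comparison, the 4 most abundant of each of those lists, *Cry1*, and the 8 nearest genes to each pattern. *Rfx2*, *Rfx3*, *Rax*, *Mlf1*, *Dnah5*, *Alb* and *Apoa1* were named from other lists or after their values were seen. So were *Alas2*, *Pmch*, *Nms*, *Six6*, *Lhx1*, *Rgs16*, *Zfhx3*, *Emx1*, *Hnf4a* and *Serpina1*. *Vip*, *Avp* and *Grp* were named as listed genes without a row. Of 145 listed genes 136 were found, 3 of them through a synonym. RefSeq's table for BCM_Maur_2.0 was used for names only. Python 3.11.15, numpy 2.4.6, pandas 2.3.3 and matplotlib 3.10.9 were used.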

Additional observations from a re-analysis of the deposited data

Results flagged for a closer look

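Both genes here had genotype ratios of opposite sign in cortex and SCN, each with a counting interval that excluded 0. The log2 ratio of *duper* over wild type for *Ttr* was 0.45 in cortex and -2.73 in SCN, on the log2(TPM + 1) scale, a difference of -3.17. That of *Enkur* was 0.89 in cortex and -0.78 in SCN, a difference of -1.68. With 1 library for each genotype and tissue the difference was not tested for either gene. In the *duper* SCN *Ttr* rested on 41 estimated counts and *Enkur* on 46.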

How the results depend on the processing

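Between genotypes the count of called genes depended on the method. Over 3 tissues the 1 called gene became 48 with no filter, 91 with the likelihood ratio test, 41 with DESeq2, 0 with limma, 2 without cortex, 34 without SCN and 22 without liver. In brain the 22 called genes became 10 with library-size scaling, 138 with no filter, 93 with the likelihood ratio test, 8 with DESeq2 and 0 with limma. Of the 9 choroid plexus and ciliated genes, 1 (*Aqp1*) was called in brain with no filter. SCN over cortex gave 3542 called genes, 5339 with no fold threshold, 2088 with limma, 2045 with all 6 libraries and 267 to 1286 when single libraries were left out of that fit, and 4 of the 9 genes became 2, 1 and 0 to 2 under limma, all 6 libraries and leave-one-out. *Kl* was lost with limma and all 6 libraries and *Enkur* with these and DESeq2. Library-size scaling moved the median of all genes from 0.02 to 0.19 and the split from 1569 higher and 1973 lower to 2431 and 1439. The cause of these differences was not tested.

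Some log2 fold changes that passed no test turned sign. Over 3 tissues *Enkur* became 0.0015 with the likelihood ratio test, 0.036 with DESeq2, 0.037 with limma and 1.00 without SCN, and *Foxj1* 0.022 with limma, 0.098 without SCN and 0.0064 without liver. There *Ccdc153* became -0.12 without cortex, *Ttr* 0.30 and *Aqp1* 0.20 without SCN, and *Clic6* 0.20 without liver. In brain *Enkur* became 0.021 with DESeq2 and 0.055 with limma. For SCN over cortex, leave-one-out values ran from -0.24 to 0.38 for *Foxj1*, -1.22 to 0.65 for *Clic6*, -0.093 to 1.17 for *Rsph1*, -1.51 to 0.17 for *Aqp1*, -0.45 to 0.47 for *Enpp2* (0.16 with library-size scaling), -0.69 to 0.093 for *Igfbp2*, -0.13 to 0.34 for *Slc12a2* and -0.28 to 1.79 for *Dynlrb2*. *Ttr*, *Kl* and *Otx2* stayed negative in these fits, at -6.64 to -3.52, -2.39 to -1.26 and -4.66 to -3.52.

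Within tissues, 7.36% of genes passed 2-fold in cortex and 1.57% on the CPM scale, 6.75% and 1.37% in SCN, and 5.89% in liver against 8.89% with a pseudocount of 0.1 TPM and 2.96% with no filter. Less the median level the hepatocyte genes correspond to, the *Ttr* log2 ratio was -4.00 for *duper* over wild type in SCN. For SCN over cortex in *duper* it was -7.99. Both depend on the choice of the median, since single hepatocyte genes gave 8.38 to 36.6 TPM in the *duper* SCN, where *Ttr* measured 24.1. The fit of SCN over cortex holds genotype as a term, so it compares pools of the same hamsters. Genes with few counts, such as *Otx2* in SCN and *Ccdc153* in the wild-type cortex, are limited by depth.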
